A study of Mus musculus with 20 samples.

Results

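Collagen chains, laminin chains and 8 further proteins of the extracellular matrix were followed in retinas of Nrl-/- mice at 5 ages. The genes were taken by name alone: every symbol of the form Col, number, a, number on the array, every Lama, Lamb or Lamc symbol with a number, and Fbn1, Fbn2, Fn1, Nid1, Nid2, Hspg2, Agrn and Sparc. This gave 53 genes of 15781 on the array, namely 38 collagen chains, 7 laminin chains and the 8 others, each read by 2 to 88 exon probe sets. All mice were of the C57Bl/6J strain and were Nrl-/-, and groups of 4 were taken at 1, 2, 4, 6 and 10 months after birth, with both retinas of a mouse pooled as 1 sample and hybridised to 1 exon array. Nrl is the transcription factor needed to make rods, and the knockout retina is filled with cone-like photoreceptors instead. No wild-type retina was analysed here, so a change with age cannot be told apart from normal ageing. In whole retina, fewer cells of a type and less RNA per cell cannot be told apart either. Levels are given as log2 intensities and differences as log2 differences of age means with their standard errors (SE). Values of single arrays are listed in the order of replicates 1 to 4, with the mean ± SD of the 4 mice after them. The adjusted p-values are those of limma, corrected by Benjamini-Hochberg over all genes tested, and a gene is said to rise or fall where this value is under 0.05.

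Basement membranes are thin sheets of matrix under epithelia and around blood vessels. They are built from a laminin network and a collagen IV network, which nidogens (Nid1, Nid2) and the heparan sulfate proteoglycans perlecan (Hspg2) and agrin (Agrn) join together, with collagens XV and XVIII along their edges. In the retina they lie at the inner limiting membrane, on which the end feet of Muller glia rest, around the vessels, and in Bruch's membrane under the pigment epithelium. Fibrillar collagens such as I, III and V form the cables of sclera and connective tissue, collagens II, IX and XI those of vitreous and cartilage, and fibrillins (Fbn1, Fbn2) form the microfibrils that hold the lens in place. SPARC is a secreted calcium-binding protein that binds collagens.

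The arrays carried strong retinal signal, with a mean of 9 photoreceptor, bipolar and retinal regulator genes between 11.54 and 11.79 on all arrays. Y-linked genes were low in all 2 month arrays and in replicates 2 and 3 of 10 months and high in all others. Comparisons of 2 months with 1 or 4 months therefore compare those levels along with age, and comparisons with 10 months do so in part. The arrays differed in spread, with the SD over tested genes lowest, at 1.37, in replicate 4 of 4 months and highest, at 1.54, in replicate 1 of 1 month. The mean of 13 lens genes lay between 6.67 and 7.25 at 1 month and at 6.35 or lower on all other arrays except replicate 2 of 6 months, at 6.92. The mean of 13 genes of pigment epithelium and choroid was 8.54, 8.03 and 8.28 in replicates 1, 3 and 4 of 10 months and between 7.17 and 7.74 on all other arrays.

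Of the 53 members, 46 passed the filter on dim genes (mean over the 20 arrays at or above the lowest 25% of all genes, 5.61) and were tested along with 11836 genes in all. The 7 members under it were Col10a1, Col11a1, Col14a1, Col19a1, Col24a1, Lama2 and Lama4. In the F test over the 5 ages 13 of the 46 passed, or 28.3%, where 38.4% of all tested genes did. From 1 to 2 months 7 of 46 were called, or 15.2%, beside 8.52% of all genes, with 1 higher and 6 lower (3.3% and 5.22% of all genes). Against 1 month, 8 were called at 4 months, 3 higher and 5 lower, or 17.4% beside 15.2% of all genes (6.9% higher, 8.26% lower). From 4 to 10 months 5 rose and 1 fell, or 13% beside 21.9% (10.2% higher, 11.7% lower). From 6 to 10 months 8 rose and none fell, or 17.4% beside 20.3% (8.56% higher, 11.7% lower). At 10 months against 1 month 11 rose and 6 fell, or 37% beside 41.4% (20.6% higher, 20.8% lower). Apart from the step from 1 to 2 months, the share of members called was close to or below that of all genes, so the members as a group did not stand out by how many changed. Between 2 and 4 months and between 4 and 6 months limma called 0 members, with 3 at an unadjusted p under 0.05 in each step, where 0.127% and 0% of all genes were called. With array weights 1 member was called between 2 and 4 months. Groups of arrays did not overlap for 8 members from 1 to 2 months (2 higher, 6 lower), beside 17.1% of all genes (7.5% higher, 9.56% lower). They did not overlap for 4 members from 2 to 4 months (3 higher, 1 lower), beside 5.74% (3.12% higher, 2.62% lower), where 0.076% and 0.0507% of all genes were called higher and lower. From 4 to 6 months the number was 1, lower, beside 2.49% (0.921% higher, 1.57% lower). From 6 to 10 months it was 8, all higher, beside 22.7% (10.6% higher, 12.1% lower). From 1 to 4 months it was 9 (3 higher, 6 lower), beside 18% (8.32% higher, 9.64% lower). From 4 to 10 months it was 5 (3 higher, 2 lower), beside 19.3% (9.01% higher, 10.3% lower). From 1 to 10 months it was 11 (7 higher, 4 lower), beside 35.8% (17.9% each way). The comparisons share arrays (1 month stands in 3 of them, 10 months in 3), so their calls are not independent of each other.

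**Figure D1:**
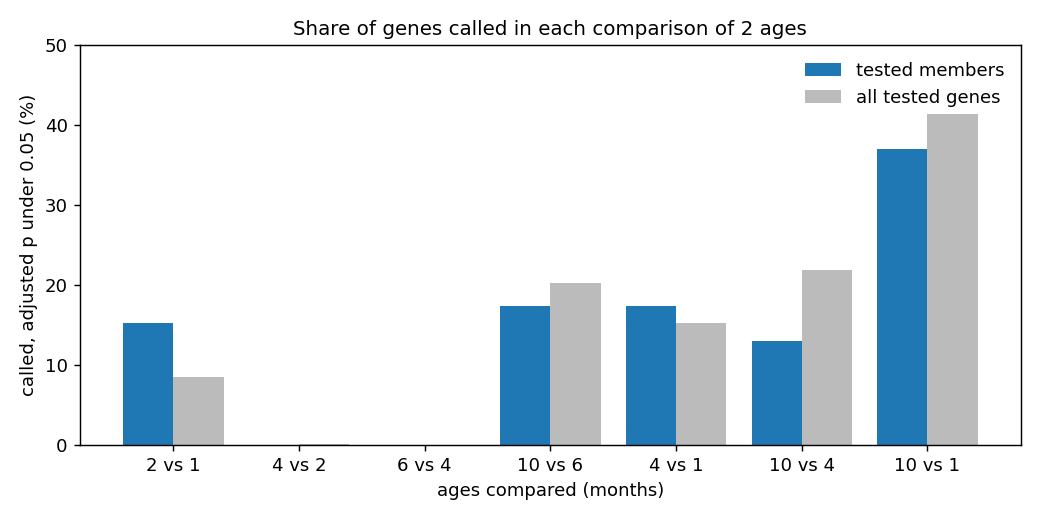
Percentage of the 46 tested members (blue) and of all 11836 tested genes (grey) with a limma adjusted p under 0.05 in each of 7 comparisons of ages in months. The blue bar is well above the grey one for 2 against 1 month, 15.2% beside 8.52%, and below it in each comparison with 10 months.

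Of the 17 tested members that build basement membranes (collagen IV, XV and XVIII chains, laminins, nidogens, perlecan and agrin) 9 passed the F test, and of the 29 others 4 did, or 52.9% and 13.8%, where 38.4% of all genes did. None of the 9 tested fibrillar collagen chains passed it. At 4 months against 1 month 6 of the 17 and 2 of the 29 were called, or 35.3% and 6.9% beside 15.2% of all genes. The split was less uneven at 10 months. Against 4 months there were 3 calls in each group, or 17.6% and 10.3% beside 21.9% of all genes. Against 1 month there were 9 and 8 calls, or 52.9% and 27.6% beside 41.4% of all genes. These shares describe groups sorted by textbook role, and the difference between them was not tested. The 6 calls of basement membrane members from 1 to 4 months were 3 rises and 3 falls, with a median difference of -0.05 beside 0.01 over all tested genes.

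**Figure D2:**
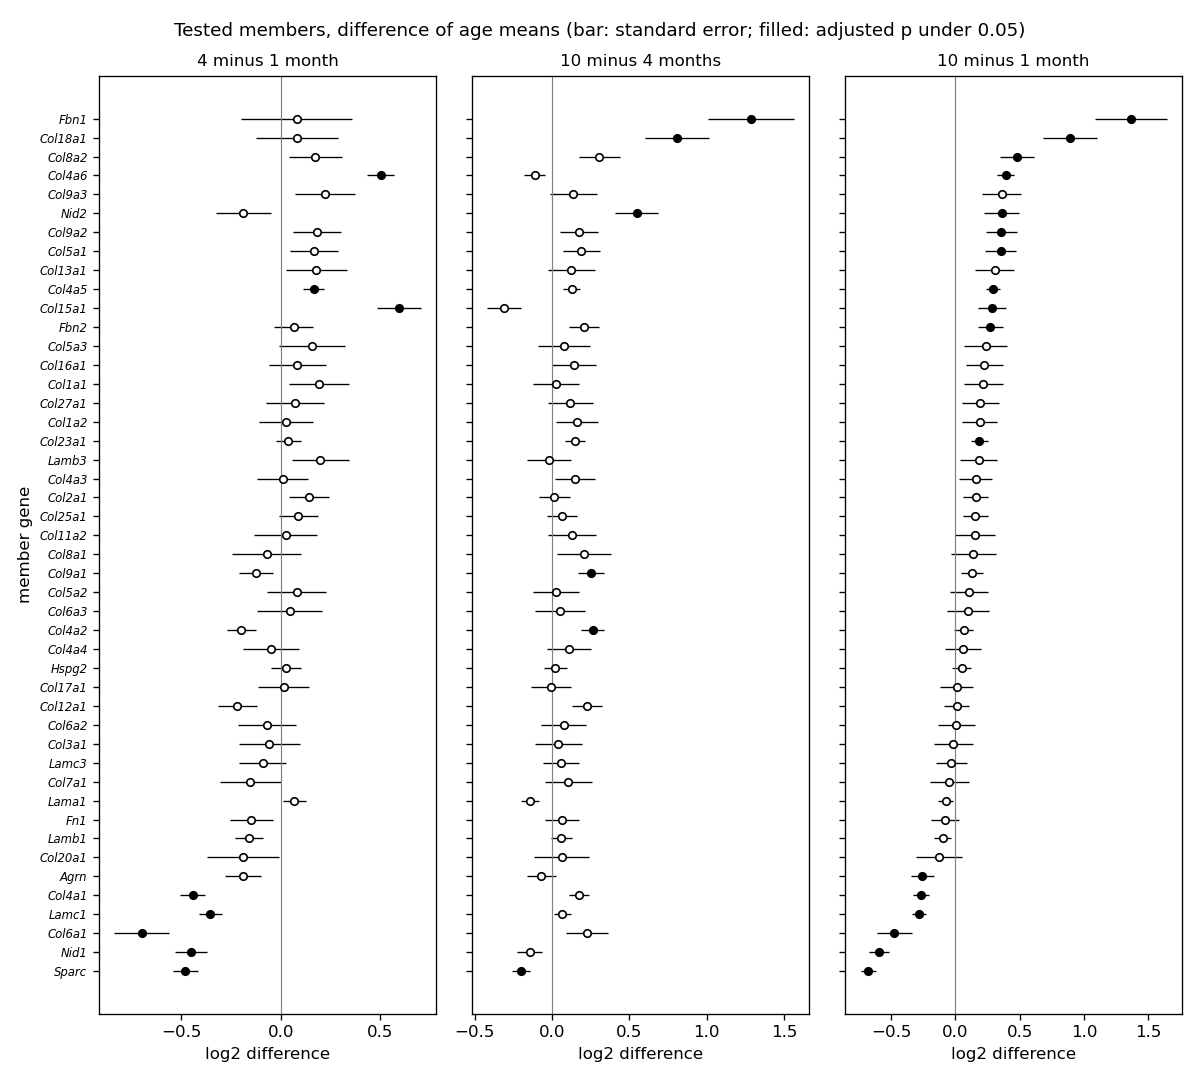
Difference of age means on the log2 scale for the 46 tested members, 4 minus 1 month, 10 minus 4 months and 10 minus 1 month, ordered by the last, with bars for the standard error and filled points for an adjusted p under 0.05. Sparc and Nid1 stand at the bottom, with 10 minus 1 month differences of -0.68 and -0.59, and Fbn1 and Col18a1 at the top, with 1.37 and 0.89.

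Sparc fell at each age against 1 month that was tested. It measured 11.24, 11.12, 11.14 and 11.20 at 1 month (11.17 ± 0.05, SD, n = 4) and 10.85, 10.91, 11.03 and 11.04 at 2 months (10.96 ± 0.09). The 4 month arrays read 10.74, 10.66, 10.77 and 10.61 (10.70 ± 0.07), the 6 month arrays 10.43, 10.58, 10.61 and 10.48 (10.52 ± 0.09), and the 10 month arrays 10.59, 10.40, 10.44 and 10.55 (10.50 ± 0.09). No array of a later age reached the lowest of 1 month, and the arrays of 2 and 4 months did not overlap either, while those of 6 and 10 months did. The difference from 1 month was -0.22 ± 0.06 (SE, adjusted p = 0.0313) at 2 months, -0.48 ± 0.06 (adjusted p = 4.41e-05) at 4 months and -0.68 ± 0.06 (adjusted p = 1.11e-07) at 10 months, which is 1.60-fold lower. All 6 of its probe sets were lower at 10 months than at 1 month. Leave-one-array-out fits, 20 in all, lost the call at 2 months 5 times (-0.23 to -0.18, adjusted p 0.0543 to 0.0952), namely when the dropped array was replicate 1, 3 or 4 at 1 month, or replicate 1 or 2 at 2 months. From 4 to 10 months Sparc fell by a further 0.20 ± 0.06 (adjusted p = 0.0242), a call lost on dropping replicate 1 or 3 at 4 months, or 2 or 3 at 10 months (highest adjusted p = 0.0771).

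Nid1, which encodes nidogen-1, the link between laminin and collagen IV, fell as well. At 1 month it measured 6.61, 6.27, 6.46 and 6.49 (6.46 ± 0.14), at 2 months 6.07, 6.14, 6.05 and 6.24 (6.12 ± 0.09) and at 4 months 6.04, 5.92, 5.88 and 6.17 (6.01 ± 0.13). At 6 months it measured 5.88, 5.72, 5.73 and 5.86 (5.80 ± 0.08) and at 10 months 5.87, 5.83, 6.02 and 5.73 (5.86 ± 0.12). All 1 month arrays lay above all others. The differences from 1 month were -0.33 ± 0.08 (SE, adjusted p = 0.014) at 2 months, -0.45 ± 0.08 (adjusted p = 0.000889) at 4 months and -0.59 ± 0.08 (adjusted p = 1.05e-05) at 10 months. All 24 of its probe sets were lower at 10 months than at 1 month. Without replicate 1 of 1 month the call at 2 months was lost (-0.28, adjusted p = 0.0542).

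Lamc1 encodes laminin gamma 1, the chain shared by most laminin trimers. Its arrays read 8.38, 8.32, 8.33 and 8.52 at 1 month (8.39 ± 0.09), 8.03, 8.20, 8.09 and 8.01 at 2 months (8.08 ± 0.08) and 8.09, 8.06, 8.04 and 7.94 at 4 months (8.03 ± 0.06). They read 8.01, 8.02, 8.01 and 7.96 at 6 months (7.999 ± 0.03) and 8.12, 8.03, 8.08 and 8.18 at 10 months (8.10 ± 0.06). All 1 month arrays lay above all later ones, and the 10 month arrays lay just above those of 6 months, a difference that was not called (0.10 ± 0.06, adjusted p = 0.213). Lamc1 fell by 0.30 ± 0.06 (SE, adjusted p = 0.00214) at 2 months and by 0.35 ± 0.06 (adjusted p = 0.000305) at 4 months, with 28 of 29 probe sets lower each time, and was 0.28 ± 0.06 lower at 10 months (adjusted p = 0.000436).

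None of the 4 other tested laminin chains was called in any of the 7 comparisons. Lamb1, the beta chain found with gamma 1 in the laminins of vessels and of the inner limiting membrane, was 0.16 ± 0.07 lower at 4 months than at 1 month (adjusted p = 0.129). The means of Lama1, Lamb3 and Lamc3 moved by at most 0.20 between ages. Lama4, the alpha chain of endothelial basement membranes, was under the filter and is given outside it. It measured 5.99, 5.92, 5.96 and 6.15 at 1 month (6.00 ± 0.10), between 5.55 and 5.66 at 2 months, between 5.42 and 5.79 at 4 months, between 5.30 and 5.60 at 6 months and between 5.30 and 5.49 at 10 months. All 1 month arrays of Lama4 lay above all later ones. In the fit with no filter it was 0.42 ± 0.08 lower at 2 months (adjusted p = 0.00541) and 0.60 ± 0.08 lower at 10 months (adjusted p = 2.18e-05), and none of the other 6 dim members was called there.

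Col6a1, a chain of the beaded filaments of collagen VI, had the largest early fall in mean. It measured 8.49, 8.41, 8.44 and 8.16 at 1 month (8.37 ± 0.15), 8.10, 7.70, 7.70 and 7.66 at 2 months (7.79 ± 0.20) and 7.39, 7.68, 7.64 and 7.99 at 4 months (7.67 ± 0.25). The 6 month values were 8.06, 8.02, 7.84 and 7.55 (7.87 ± 0.23) and the 10 month values 8.19, 7.79, 7.81 and 7.81 (7.90 ± 0.20). The 1 month arrays were above those of 2, 4 and 6 months, and replicate 1 of 10 months reached into their range. Col6a1 fell by 0.58 ± 0.14 (SE, adjusted p = 0.0118) at 2 months, by 0.70 ± 0.14 (adjusted p = 0.00187) at 4 months, with 22 of 25 probe sets lower, and was 0.47 ± 0.14 lower at 10 months (adjusted p = 0.00904). The brightest probe set alone did not show the last of these (0.051, adjusted p = 0.812). The partner chains were not called: Col6a2 moved by -0.07 ± 0.15 (adjusted p = 0.802) and Col6a3 by 0.05 ± 0.16 (adjusted p = 0.889) from 1 to 4 months.

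**Figure D3:**
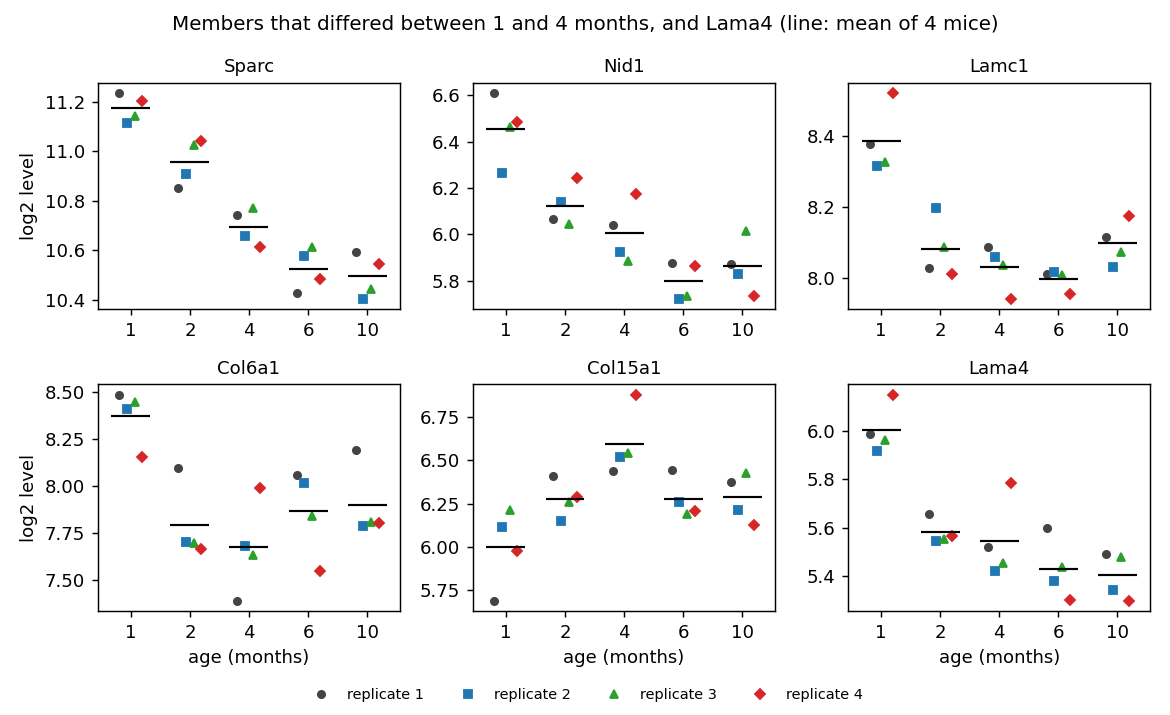
Log2 level on each array (points, shape and colour by replicate) and mean of 4 mice (line) at 1, 2, 4, 6 and 10 months for Sparc, Nid1, Lamc1, Col6a1, Col15a1 and Lama4. The 1 month arrays lie above all later ones for Sparc, Nid1, Lamc1 and Lama4, and Col15a1 is highest at 4 months, between 6.44 and 6.88.

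The 6 collagen IV chains did not move as one. They form 3 kinds of trimer: chains 1 and 2 in almost every basement membrane, chains 3, 4 and 5 in a few specialised ones, and chains 5 and 6 elsewhere. Their genes lie in 3 pairs, each read in opposite directions from starts that lie close together. By the RefSeq starts of GRCm38.p6, the first bases of Col4a1 (minus strand) and Col4a2 (plus strand) overlap by 22 bases at chr8:11312805-11312826, while 1342 bases lie between the starts of Col4a6 and Col4a5 on chromosome X. The sequence of the overlap on the plus strand and the 250 bases before the starts of Col4a5 (plus strand, chrX:141475169-141475418) and Col4a6 (minus strand, chrX:141474077-141474326) are printed because the members of each pair are compared next, each 5′ to 3′ along the strand named, with GC boxes (GGGCGG or its reverse complement CCGCCC) in capitals.
Col4a1 and Col4a2: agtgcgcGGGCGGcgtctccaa
Col4a5: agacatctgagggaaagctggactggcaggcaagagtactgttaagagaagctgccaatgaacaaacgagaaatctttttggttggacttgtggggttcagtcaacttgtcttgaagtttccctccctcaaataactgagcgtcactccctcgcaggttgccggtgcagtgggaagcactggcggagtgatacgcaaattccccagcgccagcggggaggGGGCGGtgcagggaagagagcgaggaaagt
Col4a6: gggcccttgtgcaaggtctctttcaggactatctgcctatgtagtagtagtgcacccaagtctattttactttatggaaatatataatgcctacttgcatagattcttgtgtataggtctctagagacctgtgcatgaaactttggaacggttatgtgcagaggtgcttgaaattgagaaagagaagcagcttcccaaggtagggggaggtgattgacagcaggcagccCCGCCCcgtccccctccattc

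Each of these 3 sequences holds 1 GC box, and none holds the TATA box letters TATAAA. The overlap has only 22 bases and is not a window of the same kind as the other sequences. In the 250 bases before their starts, not printed, Col4a1 has 0 GC boxes and Col4a2 has 2. The 250 bases before the start hold GGGCGG, on either strand, in 25 of 44 member promoters (56.8%) and in 10756 of all 32851 promoters (32.7%). The member set was filtered by chromosome and the set of all promoters was not. The shares for CCAAT were 31.8% and 33.8% and for TATAAA 11.4% and 12.4%, again on both strands. None of the 3 motifs contains another, and a match of letters is not a binding site. The promoters of Sparc and Nid1, the members with the strongest lasting falls, differ in these letters, with no GC box before Sparc (minus strand, chr11:55420081-55420330) and 1 before Nid1 (plus strand, chr13:13437352-13437601).
Sparc: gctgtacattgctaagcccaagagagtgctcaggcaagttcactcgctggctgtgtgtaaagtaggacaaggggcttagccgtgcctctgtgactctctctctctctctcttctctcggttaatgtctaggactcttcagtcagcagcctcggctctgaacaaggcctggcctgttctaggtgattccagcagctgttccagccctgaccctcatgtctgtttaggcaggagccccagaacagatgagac
Nid1: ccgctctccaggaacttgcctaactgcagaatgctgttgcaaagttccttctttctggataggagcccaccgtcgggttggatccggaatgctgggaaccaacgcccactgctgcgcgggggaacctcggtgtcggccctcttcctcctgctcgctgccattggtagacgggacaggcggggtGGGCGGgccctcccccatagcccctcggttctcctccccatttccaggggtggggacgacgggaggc

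Col4a1 and Col4a2 fell early and rose late. Col4a1 measured 7.93, 7.82, 7.86 and 7.87 at 1 month (7.87 ± 0.05), 7.52, 7.61, 7.46 and 7.47 at 2 months (7.51 ± 0.07) and 7.38, 7.42, 7.31 and 7.59 at 4 months (7.43 ± 0.12). It was lowest at 6 months, with 7.42, 7.37, 7.26 and 7.22 (7.32 ± 0.09), and measured 7.65, 7.57, 7.69 and 7.50 at 10 months (7.60 ± 0.09). The 10 month arrays lay above all 6 month arrays and below all 1 month arrays. The difference from 1 month was -0.36 ± 0.06 (SE, adjusted p = 0.0018) at 2 months, -0.44 ± 0.06 (adjusted p = 0.000152) at 4 months and -0.27 ± 0.06 (adjusted p = 0.00241) at 10 months, and from 6 to 10 months Col4a1 rose by 0.28 ± 0.06 (adjusted p = 0.00348). Of its 50 probe sets 44 were lower at 4 months than at 1 month and 45 were higher at 10 than at 6 months. The brightest probe set alone ran against the others, with 0.18 (adjusted p = 0.474) at 2 months, 0.25 (adjusted p = 0.2) at 4 months and 0.39 (adjusted p = 0.0176) at 10 months against 1 month.

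Col4a2 measured 8.10, 8.02, 8.09 and 7.996 at 1 month (8.05 ± 0.05) and 7.84, 7.85, 7.80 and 7.73 at 2 months (7.81 ± 0.06). At 4 months it measured 7.70, 7.84, 7.76 and 8.11 (7.85 ± 0.18), at 6 months 7.84, 7.79, 7.65 and 7.70 (7.75 ± 0.08) and at 10 months 8.12, 8.07, 8.22 and 8.05 (8.12 ± 0.08). Replicate 4 of 4 months, the array of lowest spread, lay in the range of 1 and 10 months, and the other 2, 4 and 6 month arrays lay below it. Col4a2 fell by 0.25 ± 0.07 (SE, adjusted p = 0.0415) at 2 months, and rose by 0.37 ± 0.07 (adjusted p = 0.00128) from 6 to 10 months with 44 of 47 probe sets higher. At 10 months it was 0.06 ± 0.07 above 1 month (adjusted p = 0.502). The early call was lost in 10 leave-one-array-out fits (replicates 1, 2 or 3 of 1 month, any of 2 months, 2 of 4 months, 2 or 4 of 6 months), with differences from -0.26 to -0.22 and adjusted p up to 0.136. Its rise from 4 to 10 months, 0.26 ± 0.07 (adjusted p = 0.0144), did not hold once replicate 1 at 4 months was dropped (0.21, adjusted p = 0.0506).

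Col4a6 rose from 1 to 2 months, when Col4a1 and Col4a2 fell, and Col4a6 and Col4a5 rose from 1 to 4 months, when Col4a1 fell. Col4a2 was not called from 1 to 4 months (-0.20 ± 0.07, adjusted p = 0.0733), nor Col4a5 from 1 to 2 months (0.14 ± 0.05, adjusted p = 0.112). Col4a6 measured 6.22, 6.30, 6.30 and 6.24 at 1 month (6.27 ± 0.04), 6.65, 6.52, 6.70 and 6.65 at 2 months (6.63 ± 0.08) and 6.72, 6.81, 6.73 and 6.81 at 4 months (6.77 ± 0.05). It measured 6.70, 6.86, 6.71 and 6.61 at 6 months (6.72 ± 0.10) and 6.80, 6.51, 6.77 and 6.55 at 10 months (6.66 ± 0.15). Every later array was above every 1 month array. The rise from 1 month was 0.36 ± 0.07 (SE, adjusted p = 0.00234) at 2 months, 0.50 ± 0.07 (adjusted p = 7.65e-05) at 4 months, with 48 of 52 probe sets higher, and 0.39 ± 0.07 (adjusted p = 0.000135) at 10 months. Col4a6 was the only member that rose from 1 to 2 months.

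Col4a5 measured 6.79, 6.89, 6.89 and 6.78 at 1 month (6.84 ± 0.06), 7.07, 6.95, 6.996 and 6.91 at 2 months (6.98 ± 0.07) and 7.01, 6.96, 6.996 and 7.03 at 4 months (7.001 ± 0.03). The 6 month values were 6.90, 7.01, 6.86 and 6.83 (6.90 ± 0.08) and the 10 month values 7.24, 7.10, 7.09 and 7.08 (7.13 ± 0.08). All 10 month arrays were above all others, the nearest being replicate 1 of 2 months at 7.07. Col4a5 rose by 0.17 ± 0.05 (SE, adjusted p = 0.0447) from 1 to 4 months, by 0.23 ± 0.05 (adjusted p = 0.0054) from 6 to 10 months and by 0.29 ± 0.05 (adjusted p = 0.000255) from 1 to 10 months. The first of these calls was lost in 11 leave-one-array-out fits (0.15 to 0.18, adjusted p up to 0.118), those without replicates 1, 2 or 4 of 1 month, 2 or 3 of 2 months, any of 4 months, 1 of 6 months or 2 of 10 months. The third pair, Col4a3 and Col4a4, was not called in any comparison, and the age means of each stayed within 0.18 and 0.16 of each other.

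**Figure D4:**
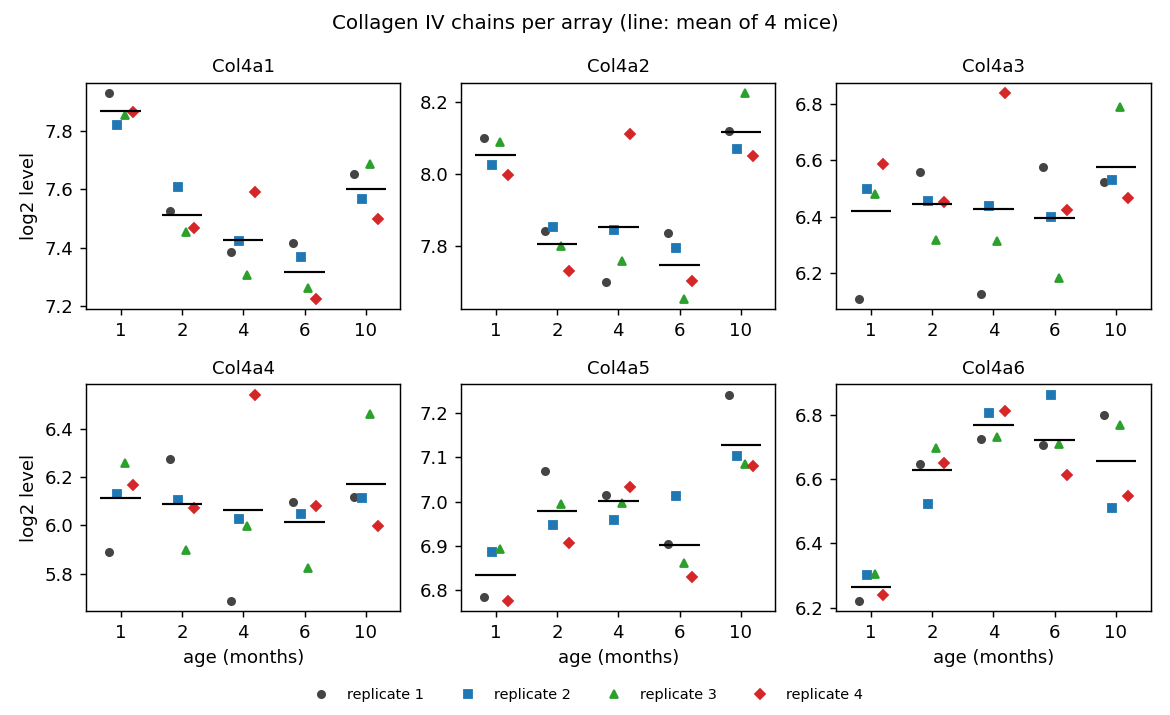
Log2 level on each array (points, shape and colour by replicate) and mean of 4 mice (line) at 1, 2, 4, 6 and 10 months for the 6 collagen IV chains. Col4a1 drops from 7.87 at 1 month to 7.32 at 6 months and stands at 7.60 at 10 months, Col4a6 goes up from 6.27 to 6.77 at 4 months, and Col4a3 and Col4a4 show no called difference.

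Markers of vessels, lens, Muller glia and microglia differed over the same ages. From 1 to 4 months, when 6.9% of all genes rose and 8.26% fell, 7 of 14 tested endothelial genes fell and 1 rose, with Slco1a4 at -0.99 ± 0.20 and the tight junction gene Cldn5 at -0.94 ± 0.21. The mean of the 15 endothelial genes was between 7.24 and 7.39 at 1 month, between 7.15 and 7.19 at 2 months, and between 6.97 and 7.13 on all later arrays. Of 11 tested pericyte and smooth muscle genes 2 fell, or 18.2%, near the 15.2% of all genes called, namely Rgs5 (-0.47 ± 0.10) and Abcc9 (-0.33 ± 0.08), and the list mean was 7.08 to 7.20 at 1 month and 6.81 to 7.21 at 4 months. Of 9 tested lens genes 3 fell, with Cryaa at -2.54 ± 0.49, while 10 of 16 Muller glia genes rose. Of 13 tested microglia and macrophage genes 8 rose and none fell from 1 to 2 months, where 3.3% of all genes rose, and 5 rose from 1 to 4 months. The part of these markers in the results of the members was not tested beyond the fits given next. With the endothelial mean as a covariate, 1 member was called from 1 to 4 months and 3 from 1 to 10 months. With the lens mean as a covariate there were 4 from 1 to 4 months and 0 from 1 to 2 months, and with the Y-linked mean 0 from 1 to 2 months. Each of these means differs between 1 month and the ages set against it, so covariate and age overlap in such fits. Without replicate 1 of 1 month 4 members were called from 1 to 2 months. The shares of all genes called in these fits are not given here, so the lower counts do not set the members apart.

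Col15a1 encodes a collagen with heparan sulfate or chondroitin sulfate chains at the outer face of basement membranes, and its mean was highest at 4 months. It measured 5.69, 6.12, 6.22 and 5.98 at 1 month (6.00 ± 0.23), 6.41, 6.15, 6.26 and 6.29 at 2 months (6.28 ± 0.11) and 6.44, 6.52, 6.54 and 6.88 at 4 months (6.59 ± 0.19). At 6 months it measured 6.44, 6.26, 6.19 and 6.21 (6.28 ± 0.12) and at 10 months 6.37, 6.22, 6.42 and 6.13 (6.29 ± 0.14). The 4 month arrays were all above those of 1, 2 and 10 months, and level with the highest of 6 months at the low end. Col15a1 rose by 0.59 ± 0.11 (SE, adjusted p = 0.00117) from 1 to 4 months, with all 35 probe sets higher, and at 10 months was 0.29 ± 0.11 above 1 month (adjusted p = 0.0432). The lower levels after 4 months were not called, with -0.32 ± 0.11 at 6 months (adjusted p = 0.895) and -0.31 ± 0.11 at 10 months (adjusted p = 0.0506). The later call was lost in 8 leave-one-array-out fits (0.18 to 0.31, adjusted p up to 0.179): replicates 1 or 4 of 1 month, 3 or 4 of 2 months, 2 of 6 months, or 1, 2 or 3 of 10 months.

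Fbn1, the gene of fibrillin-1, had the largest rise of all members at 10 months, and its arrays fell into high and low ones within an age. It measured 7.14, 7.22, 7.15 and 7.40 at 1 month (7.23 ± 0.12), 7.21, 8.11, 8.45 and 7.17 at 2 months (7.74 ± 0.65) and 7.47, 7.22, 7.31 and 7.23 at 4 months (7.31 ± 0.12). The 6 month values were 7.46, 8.19, 7.66 and 7.37 (7.67 ± 0.37) and the 10 month values 8.92, 7.71, 8.68 and 9.05 (8.59 ± 0.60). Replicates 2 and 3 of 2 months, 2 of 6 months and 1, 3 and 4 of 10 months were above 8 and all others below it. The rise was 1.37 ± 0.28 (SE, adjusted p = 0.000661) from 1 to 10 months, a 2.58-fold difference, 1.28 ± 0.28 (adjusted p = 0.0028) from 4 to 10 months and 0.92 ± 0.28 (adjusted p = 0.0243) from 6 to 10 months. Of its 77 probe sets 76 were higher at 10 months than at 1 month, though the brightest one was not (-0.038, adjusted p = 0.757). The call against 6 months was lost in 6 leave-one-array-out fits, without replicates 1, 3 or 4 of 6 or of 10 months (0.77 to 0.92, adjusted p up to 0.0781).

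Col18a1, the basement membrane collagen whose tail is released as endostatin, was high on the same arrays. Its values were 7.68, 7.91, 7.87 and 7.73 at 1 month (7.80 ± 0.11), 7.61, 8.32, 8.56 and 7.69 at 2 months (8.05 ± 0.47) and 7.77, 7.92, 7.88 and 7.95 at 4 months (7.88 ± 0.08). They were 7.89, 8.38, 8.03 and 7.73 at 6 months (8.01 ± 0.27) and 8.94, 8.01, 8.85 and 8.95 at 10 months (8.69 ± 0.46). The 3 high arrays of 10 months lay above every other array, and replicate 2 of 10 months lay with the low ones. Col18a1 rose by 0.89 ± 0.21 (SE, adjusted p = 0.00203) from 1 to 10 months, by 0.81 ± 0.21 (adjusted p = 0.00903) from 4 to 10 months and by 0.68 ± 0.21 (adjusted p = 0.0252) from 6 to 10 months. All 33 probe sets were higher at 10 than at 4 months, and 32 at 10 months than at 1 month, but the brightest one alone was not higher than at 1 month (-0.036, adjusted p = 0.931). The call against 6 months was lost on dropping replicate 1 or 4 at 6 months, or 1, 3 or 4 at 10 months (0.59 to 0.64, adjusted p up to 0.0857).

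Nid2, the second nidogen, rose at 10 months while Nid1 stayed low. It measured 6.76, 6.90, 6.83 and 6.93 at 1 month (6.85 ± 0.08), 6.69, 6.87, 6.96 and 6.56 at 2 months (6.77 ± 0.18) and 6.53, 6.63, 6.64 and 6.86 at 4 months (6.66 ± 0.14). At 6 months it measured 6.73, 6.86, 6.43 and 6.62 (6.66 ± 0.18) and at 10 months 7.38, 6.72, 7.19 and 7.56 (7.21 ± 0.36). Replicates 1, 3 and 4 of 10 months were again the highest of all arrays and replicate 2 was not. Nid2 rose by 0.55 ± 0.14 (SE) both from 4 and from 6 to 10 months (adjusted p = 0.00788 and 0.00754), with 24 and 25 of its 25 probe sets higher. Against 1 month it was 0.36 ± 0.14 higher (adjusted p = 0.0438), a call lost in 12 leave-one-array-out fits, among them each without a 1 month array (0.33 to 0.39) and those without replicates 1, 3 or 4 of 10 months (0.24 to 0.37), with adjusted p up to 0.158.

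Col9a1 encodes a chain of collagen IX, a collagen of vitreous fibrils. It measured 8.45, 8.55, 8.58 and 8.38 at 1 month (8.49 ± 0.09), 8.32, 8.44, 8.38 and 8.27 at 2 months (8.36 ± 0.07) and 8.22, 8.43, 8.29 and 8.53 at 4 months (8.37 ± 0.14). It measured 8.39, 8.32, 8.37 and 8.27 at 6 months (8.34 ± 0.05) and 8.87, 8.36, 8.63 and 8.61 at 10 months (8.62 ± 0.21). Here too replicate 2 was the low array of 10 months. The rises of 0.25 ± 0.09 (SE, adjusted p = 0.0425) from 4 and of 0.28 ± 0.09 (adjusted p = 0.0261) from 6 to 10 months were lost in 10 and 4 leave-one-array-out fits. Without replicate 1 of 10 months they were 0.17 (adjusted p = 0.159) and 0.20 (adjusted p = 0.0962). At 10 months Col9a1 was 0.13 ± 0.09 above 1 month (adjusted p = 0.245).

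At 10 months, markers of tissue next to the retina were high in replicates 1, 3 and 4, where these members were high. Of the 11 tested pigment epithelium and choroid genes, 4 rose and 1 fell from 1 to 10 months, or 45.5%, near the 41.4% of all genes called, so the list is described here by its level on each array. Among the rises was Rpe65, the isomerase of the visual cycle (0.98 ± 0.30). Replicate 2 of 10 months had the lowest list mean of all 20 arrays, 7.17. The list was not high in replicates 2 and 3 of 2 months, at 7.41 and 7.35, although Fbn1 and Col18a1 were high there. Optc and Best2, genes known from the ciliary epithelium and chosen here after their values were seen, were high on those arrays too. Optc measured 5.80, 7.82, 8.55 and 6.00 at 2 months and 8.67, 5.93, 8.55 and 8.79 at 10 months, and between 5.75 and 6.47 on the arrays of 1 and 4 months. At 6 months it measured 6.01, 7.78, 6.95 and 6.01. Best2 measured 5.43, 6.42, 6.39 and 5.55 at 2 months, 5.53, 6.57, 5.89 and 5.51 at 6 months and 6.76, 5.44, 7.02 and 6.86 at 10 months. The high arrays of Optc and Best2 were those of Fbn1: replicates 2 and 3 at 2 months, replicate 2 at 6 months, and replicates 1, 3 and 4 at 10 months. Since both genes were chosen after their values were seen, this match is a description only. The part of these markers in the rise of the members was not tested.

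**Figure D5:**
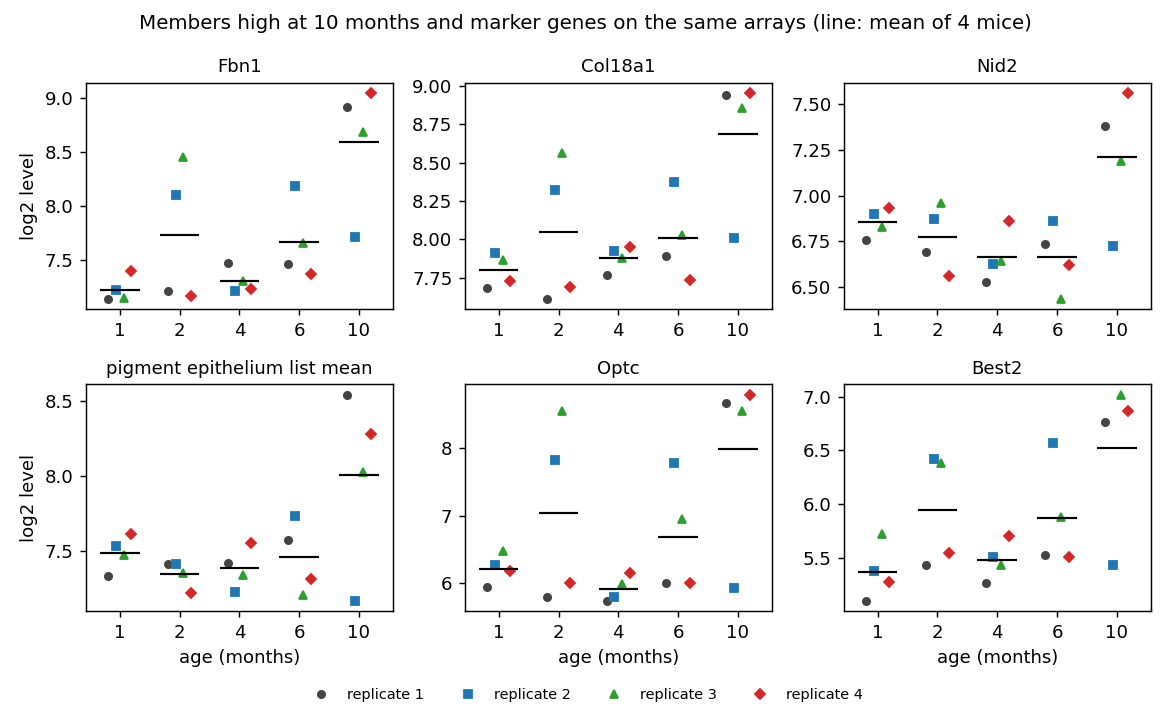
Log2 level on each array (points, shape and colour by replicate) and mean of 4 mice (line) at 5 ages for Fbn1, Col18a1 and Nid2, the mean of the pigment epithelium list, and Optc and Best2. Replicate 2 of 10 months (blue square) is low in every panel, for example 7.71 for Fbn1 beside 8.68 to 9.05 in the other 3 mice, and replicates 2 and 3 of 2 months are high for Fbn1, Col18a1, Optc and Best2.

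The 3 arrays of 10 months with high pigment markers were also those on which Fbn1, Col18a1 and Nid2 were highest, so smaller rises without them follow from the choice of arrays and are given as a description. In a fit without replicates 1, 3 and 4 of 10 months, added after seeing the data, the 1 array left is taken to vary like the other ages. Few differences can be called with it. That array, replicate 2, also had low Y-linked genes, which were high on all arrays of 1, 4 and 6 months, so its differences from those ages compare Y-linked levels too. The difference from 4 to 10 months on that array was 0.41 (adjusted p = 0.676) for Fbn1, 0.13 (adjusted p = 0.892) for Col18a1 and 0.06 (adjusted p = 0.918) for Nid2. Against 1 month the sign turned for Nid2, to -0.13 (adjusted p = 0.621) from 0.36 with all arrays. The collagen IV chains differed less between the fits. From 6 to 10 months Col4a2 stood at 0.32 (adjusted p = 0.139), Col4a1 at 0.25 (adjusted p = 0.18) and Col4a5 at 0.20 (adjusted p = 0.192) on the 1 array, beside 0.37, 0.28 and 0.23 with all 4, and Col4a2 stood at 0.22 (adjusted p = 0.376) from 4 to 10 months, beside 0.26. In all, 0 members were called from 4 and 0 from 6 to 10 months in this fit. Of the 6 falls from 1 to 10 months, 4 kept their calls in it, with differences of -0.77 (adjusted p = 5.87e-05) for Sparc, -0.63 (adjusted p = 0.00271) for Nid1, -0.35 (adjusted p = 0.0118) for Lamc1 and -0.30 (adjusted p = 0.0471) for Col4a1. The falls of Col6a1 (-0.59, adjusted p = 0.0729) and Agrn (-0.32, adjusted p = 0.109) were not called in it, nor was the rise of Col4a6 (0.24, adjusted p = 0.0694), while Col4a5 kept its rise from 1 to 10 months (0.27, adjusted p = 0.0341). A separate fit, also added after seeing the data, kept all arrays and took the pigment epithelium mean as a covariate. It called 0 members from 4 and 1 from 6 to 10 months, and the share of all genes it called is not given here. From 1 to 10 months Fbn1 (0.87, adjusted p = 0.0143) and Col18a1 (0.53, adjusted p = 0.0448) kept their calls in it while Nid2 did not (0.05, adjusted p = 0.719). The pigment mean was not high in replicates 2 and 3 of 2 months (7.41 and 7.35), where Fbn1 and Col18a1 were, and it overlaps with age at 10 months. The kept calls therefore cannot tell whether adjacent tissue had a part, which was not tested.

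Further members were called at 10 months. Against 1 month Col8a2, a chain of the network-forming collagen VIII, rose by 0.48 ± 0.13 (SE, adjusted p = 0.00747), and no leave-one-array-out fit lost this call. Col9a2 rose by 0.36 ± 0.12 (adjusted p = 0.0228), Col5a1 by 0.35 ± 0.12 (adjusted p = 0.0244) and the transmembrane collagen gene Col23a1 by 0.19 ± 0.06 (adjusted p = 0.0243). Fbn2, named to complete the count after its value was seen, rose by 0.27 ± 0.10 (adjusted p = 0.0332). Those of Col9a2, Col5a1, Col23a1 and Fbn2 were lost in 2, 3, 5 and 5 of these fits, each time without replicate 1 of 1 month and replicate 3 of 10 months among them (Col9a2 0.28, Col5a1 0.28 and 0.32, Col23a1 0.18 and 0.16, Fbn2 0.22 and 0.21). From 6 to 10 months Col23a1 rose by 0.21 ± 0.06 (adjusted p = 0.0253), with 5 such losses. On dropping replicate 1 at 1 month or replicate 3 at 10 months the count of members called from 1 to 10 months was 11 each time, in place of 17. The SD over tested genes was 1.54, the highest of all arrays, on the first of these arrays and 1.41 on the second. From 6 to 10 months the count was 5 and 4 without replicates 1 and 4 of 6 months and 4 without replicate 1 or 3 of 10 months, in place of 8. The shares of all genes called in these fits are not given here.

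Agrin was called once, and perlecan and fibronectin were not called in any comparison. Agrn measured 8.57, 8.47, 8.82 and 8.53 at 1 month (8.60 ± 0.15), 8.36, 8.41, 8.32 and 8.48 at 2 months (8.39 ± 0.07) and 8.16, 8.48, 8.47 and 8.53 at 4 months (8.41 ± 0.17). It measured 8.34, 8.30, 8.43 and 8.29 at 6 months (8.34 ± 0.07) and 8.57, 8.28, 8.37 and 8.16 at 10 months (8.34 ± 0.17). The groups of 1 and 10 months overlapped, and the fall of 0.26 ± 0.09 (SE, adjusted p = 0.0306), with 40 of 41 probe sets lower, was lost on dropping replicate 3 at 1 month (-0.18) or, at 10 months, replicate 2 (-0.24) or 4 (-0.20). Hspg2 measured 7.18, 7.17, 7.26 and 7.36 at 1 month, 7.24, 7.30, 7.17 and 7.20 at 2 months, 7.19, 7.30, 7.13 and 7.46 at 4 months, 7.23, 7.16, 7.05 and 7.13 at 6 months and 7.28, 7.31, 7.44 and 7.13 at 10 months. All 5 groups overlapped for this gene, and its difference from 1 to 10 months was 0.05 ± 0.07 (adjusted p = 0.63). Fn1, which encodes fibronectin, the adhesion protein of plasma and interstitial matrix, measured 8.999, 8.70, 8.68 and 9.15 at 1 month, 8.80, 8.999, 8.96 and 8.78 at 2 months and 9.07, 8.63, 8.59 and 8.65 at 4 months. It measured 8.79, 8.79, 8.56 and 8.65 at 6 months and 8.77, 8.83, 8.76 and 8.84 at 10 months. These groups overlapped as well, with a difference of -0.08 ± 0.11 (adjusted p = 0.559) from 1 to 10 months.

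Of the 9 tested fibrillar collagen chains 1, Col5a1, was called in any comparison, from 1 to 10 months, where its groups did not overlap. The mean of the 11 chains was between 6.37 and 6.77 at 1 month, 6.49 and 6.74 at 2 months, 6.27 and 7.12 at 4 months, 6.43 and 6.62 at 6 months and 6.52 and 6.96 at 10 months. Its highest value, 7.12, was on replicate 4 of 4 months, which had the lowest spread of all arrays. Its lowest, 6.27, was on replicate 1 of 4 months, where the SD was 1.53. The mean of all 53 members was likewise highest, 7.24, on the first of these arrays and lowest, 6.70, on the second. All 9 tested chains had a higher mean at 10 than at 6 months (0.14 to 0.29), and none was called in that comparison. With array spread as a covariate, added after seeing the data, 16 members were called from 1 to 4 months, 14 from 4 to 10 months and 22 from 1 to 10 months, in place of 8, 6 and 17. Without replicate 4 of 4 months 13 members were called from 4 to 10 months. The shares of all genes called in these fits are not given here, so the counts do not set the members apart. Of 12 fibroblast, sclera and cornea genes only 5 were bright enough to test, and Thbs2 alone rose from 1 to 10 months (0.49 ± 0.15).

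The genes for collagen processing and secretion moved both ways. Of 20 tested genes 5 fell and 5 rose from 1 to 10 months, or 50% beside 41.4% of all genes, and 6 fell and 1 rose from 4 to 10 months, or 35% beside 21.9%. The rises from 1 to 10 months were those of Creb3l1 (0.30 ± 0.06), Colgalt2 (0.24 ± 0.08), Tll1 (0.22 ± 0.08), Crtap (0.21 ± 0.07) and P3h2 (0.15 ± 0.05), named to complete the count after their values were seen. The 3 largest falls were those of P4ha1, a subunit of the prolyl hydroxylase that stabilises the triple helix (-0.79 ± 0.07, adjusted p = 1.27e-07), Colgalt1, which adds galactose to hydroxylysine (-0.72 ± 0.06, adjusted p = 2.83e-08), and the lysyl hydroxylase gene Plod3 (-0.53 ± 0.07, adjusted p = 8.69e-06). From 1 to 4 months 3 fell and 2 rose, or 25% beside 15.2% of all genes. Among them were the prolyl 3-hydroxylase family gene P3h3 at -0.48 ± 0.08, the protease gene Tll1 at 0.36 ± 0.08 and Creb3l1 at 0.31 ± 0.06. Among the 5 tested cross-linking genes 3 were called from 1 to 10 months, or 60% beside 41.4% of all genes. Loxl1, a lysyl oxidase relative needed for elastic fibres, rose by 0.52 ± 0.08 (adjusted p = 5.62e-05). Loxl4 rose by 0.29 ± 0.09 and Loxl2 fell by 0.22 ± 0.09. Tgm2, a transglutaminase gene, was 0.39 ± 0.07 higher at 4 than at 1 month and 0.28 ± 0.07 lower at 10 than at 4 months. The median of the processing genes was 0.01 from 1 to 10 months and that of all tested genes 0.04.

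Of 18 tested genes for matrix proteases and inhibitors 7 rose and none fell from 1 to 10 months, or 38.9% beside 41.4% of all genes (20.6% higher, 20.8% lower), led by Timp3, the metalloproteinase inhibitor stored in Bruch's membrane (1.06 ± 0.13, adjusted p = 3.61e-06), the serine protease gene Htra1 (0.64 ± 0.07, adjusted p = 2.2e-06) and Adamts1 (0.60 ± 0.12, adjusted p = 0.000789). From 1 to 4 months 3 rose, Timp2 (0.38 ± 0.07), Mmp14 (0.31 ± 0.10) and Htra1 (0.24 ± 0.07), or 16.7% beside 15.2% of all genes. From 1 to 2 months 2 rose, Htra1 and Timp2, and 2 fell, or 22.2% beside 8.52% of all genes. The falls were those of Mmp2 and Mmp9, the gelatinases that cut collagen IV, by 0.32 ± 0.07 and 0.31 ± 0.08 (adjusted p = 0.0061 and 0.0158). Of the 20 tested receptors and their partners 7 rose and 2 fell from 1 to 10 months, or 45% beside 41.4% of all genes, among them the collagen receptor gene Ddr2 (0.63 ± 0.14, adjusted p = 0.00175), the integrin gene Itgav (0.47 ± 0.07) and the sarcoglycan gene Sgce (-0.51 ± 0.08). From 1 to 4 months 4 rose and 3 fell, or 35% beside 15.2% of all genes. Dmd, whose short products sit at the dystroglycan complex of the retina, fell by 0.30 ± 0.08 there.

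Of 34 tested other matrix proteins 13 rose and 4 fell from 1 to 10 months, or 50% beside 41.4% of all genes. The mean of this list was 7.58, 7.18, 7.52 and 7.47 at 10 months, with replicate 2 low as for the pigment and ciliary markers. Fbln1 measured 9.42, 6.57, 9.11 and 9.38 at 10 months and Mfap4 8.26, 6.35, 8.01 and 7.81, again with replicate 2 low, and the part of those markers in these rises was not tested. The fibulin gene Fbln1 (2.04 ± 0.66, adjusted p = 0.0189), Mfap4, a microfibril protein gene (1.39 ± 0.39, adjusted p = 0.00803), and the fibulin gene Fbln5 (1.02 ± 0.12, adjusted p = 2.49e-06) had the largest rises. From 1 to 4 months 6 rose and 3 fell, or 26.5% beside 15.2% of all genes. Among the rises were Efemp1, a fibulin family gene, at 0.61 ± 0.11, Tnxb at 0.58 ± 0.08 and Fbln5 at 0.38 ± 0.12. Of 16 tested genes of TGF-beta signalling, a main inducer of collagen genes, 1 rose and 1 fell from 1 to 4 months, or 12.5% beside 15.2% of all genes. They were Smad3 (0.19 ± 0.05) and the endothelial co-receptor gene Eng (-0.39 ± 0.10). Between 4 and 10 months 4 rose, or 25% beside 21.9% of all genes, among them the co-receptor gene Tgfbr3 (0.42 ± 0.09, adjusted p = 0.00385) and Skil (0.32 ± 0.10). The list medians from 1 to 10 months were 0.16 for proteases and inhibitors, 0.14 for receptors, 0.18 for other matrix proteins and 0.04 for the TGF-beta pathway, beside 0.04 over all tested genes and 0.15 over the 46 members.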

How the data were processed

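Retinal RNA of 20 Nrl-/- mice was measured on exon arrays. Per the submitters' processing notes the deposited values are log2 intensities made with RMA, per exon-level probe set (194293 probe sets, 0.986 to 14.3). The software version was not given in the sources used here, nor was the array build. RMA gives arrays a common distribution, so a shift of all genes would not be seen.

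Probe sets with 1 gene symbol in the platform table (179496) were kept; 1328 had several and 13469 none. Symbols were updated through the RefSeq table of GRCm38.p6 (15744 of 15781 gene names are current there). One member was renamed, Lamb1-1 to Lamb1. Values were summarised per gene by median polish, and the lowest 25% by mean level were left out. Fits used limma 3.58.1 in R 4.3.3, 1 mean per age, 15 residual degrees of freedom, two-sided, adjusted over 11836 genes. On simulated data for 10 against 4 months in 11836 genes, changes of 0.3, 0.6 and 1.2 were put into 67, 67 and 66 genes. They were recovered for 37.3%, 89.6% and 100% of those genes, with 10 false calls. In the data themselves 21.9% of genes were called in that comparison, so these shares need not hold there. Precision is limited by 4 arrays per age. Promoters came from RefSeq (39 of 53 members, counted after the member set was filtered by chromosome), figures from matplotlib 3.10.9.

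Values on every array are given for the members past the F test (13) and for Hspg2, Agrn and Fn1. Called members were named, up to 8 each way per comparison, and up to 3 called genes of each pathway list. The members and lists were chosen with earlier results of these data known. Alternatives were other probe set summaries, filters, scalings, weights, eBayes settings, covariates, a replicate block, fits on 2 ages, and leaving out each array. Replicate numbers did not pair the mice across ages.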

Additional observations from a re-analysis of the deposited data

Results flagged for a closer look

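Among 80 groups of 4 arrays (16 members at 5 ages) 7 had an array far from the other 3 (Dixon's criterion at the 95% level), where chance alone flags about 1 group in 20. Col18a1 in replicate 2 of 10 months measured 8.01, with the next at 8.85. Col6a1 in replicate 1 measured 8.10 at 2 months and 8.19 at 10 months, with the next at 7.70 and 7.81. Col4a5 in replicate 1 of 10 months measured 7.24, with the next at 7.10. Lamc1 in replicate 4 of 6 months measured 7.96, with the next at 8.01, a gap that is small in size. In replicate 1 of 4 months Agrn measured 8.16, with the next at 8.47, and Fn1 measured 9.07, with the next at 8.65.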

How the results depend on the processing

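The counts of members called were 7 from 1 to 2 months, 0 from 2 to 4 and from 4 to 6 months, 8 from 6 to 10, 8 from 1 to 4, 6 from 4 to 10 and 17 from 1 to 10 months, and 13 in the F test. Counts of the other fits are given without the share of all genes called in each. A lower or higher count there does not set the members apart from other genes. With the brightest probe set per gene they were 2 (1 to 2 months), 1 (6 to 10), 3 (1 to 4), 1 (4 to 10), 10 (1 to 10) and 4 (F test). There the sign turned for Col4a1 (0.18, 0.25 and 0.39 at 2, 4 and 10 months against 1 month), Col4a5 (-0.0059 from 1 to 4 months), Fbn1 (-0.14 from 4 and -0.038 from 1 to 10 months), Col6a1 (0.051) and Col18a1 (-0.036, both from 1 to 10 months). With the lowest 50% of genes left out, which tests fewer members, 4 (1 to 4) and 9 (1 to 10) were called. Array weights gave 1 (2 to 4) and 4 (6 to 10), and fits on the arrays of both ages alone gave 2 (4 to 10). The Y-linked covariate gave 0 (1 to 2) and 11 (1 to 10), and the lens covariate 0 (1 to 2) and 4 (1 to 4). The endothelial covariate gave 1 (1 to 2), 4 (6 to 10), 1 (1 to 4), 3 (1 to 10) and 8 (F test), with Col4a1 at 0.0020 from 1 to 10 months. Of the alternatives added after seeing the data, the pigment epithelium covariate gave 1 (6 to 10), 0 (4 to 10) and 10 (1 to 10), and array spread gave 1 (2 to 4), 16 (1 to 4), 14 (4 to 10) and 21 (F test). Leaving out replicates 1, 3 and 4 of 10 months gave 0 (6 to 10), 0 (4 to 10), 6 (1 to 10) and 8 (F test), with Col9a1 at -0.0063 from 4 and Nid2 at -0.13 from 1 to 10 months. Apart from the construction of these fits, the cause was not tested. Leaving out 1 array at a time gave 4 to 7 members from 1 to 2 months, 4 to 10 from 6 to 10, 7 to 8 from 1 to 4, 4 to 13 from 4 to 10, 11 to 19 from 1 to 10 and 11 to 18 in the F test, and 28 of 46 called gene results were never lost. Mean summaries, median centring, quantile scaling, no filter and trended, robust eBayes kept each count within 1.5 times. With the replicate number as a block the counts were 5 (1 to 2), 0 and 0 (2 to 4 and 4 to 6), 8 (6 to 10), 7 (1 to 4), 5 (4 to 10), 15 (1 to 10) and 12 (F test). Deviations of same-numbered arrays correlated from -0.57 to 0.56 over 40 pairs (median -0.03), and 4 of 20 arrays correlated best with their own number, so the numbers do not pair the mice. Signal over background was not analysed here, so dim probe sets were judged by level alone.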
